A study of Mus musculus with 18 samples.

Results

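The genes around Smim30 on mouse chromosome 6 were examined in LPS-treated macrophages, with Mut cells set against WT cells first, to look for differences linked to the Smim30 locus. Smim30 codes for a small protein of cell membranes and appears in the annotation as 2610001J05Rik at chr6:13867735-13871518 (GRCm38, minus strand). A gene was included if its lowest start on chromosome 6 lay below 33900000 and its counts summed to 10 or more over the 3 WT and 3 Mut libraries. Smim30 itself, Asns, Irf5, Col1a2, Ndufa4, Ndufa5 and symbols starting with Smim were left out by the rule. This gave 116 of the 55401 genes counted, reaching from 10.5 Mb below Smim30 to 19.4 Mb above it. Of the 412 genes in that stretch, 290 fell under the minimum and 6 were left out by name. The lowest sum just inside the minimum was 11 and the highest just outside was 9.

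RNA sequencing covered 18 libraries in 6 groups of 3, all labelled C57BL/6J and all given lipopolysaccharide (LPS), which comes from the outer membrane of Gram-negative bacteria and switches macrophages on, at 5 ng/ml for 6 h. Peritoneal macrophages came from mice with a mutated Smim30 gene (Mut) and from wild-type mice (WT). Further Mut macrophages were given a Smim30 overexpression adenovirus (Mut AdSmim30) or a control adenovirus (Mut AdCtrl), added 6 h into culture and left on for 24 h, and then LPS. IC-21, an established mouse peritoneal macrophage line, was transfected for 24 h with a Smim30 siRNA (siSmim30) or a control siRNA (siCtrl). How the Mut allele was made and bred is not given in the sources used here, and neither is the promoter that drives Smim30 in the virus. The Mut AdSmim30 and Mut AdCtrl libraries both carry the mutation, and none of the WT libraries received a virus. The labels name triplicates and no mouse or culture behind each, so a p-value here covers the spread among 3 samples of a group, and that spread may be technical.

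A mutated allele is bred together with the chromosome on either side of it. Genes near a mutated locus can therefore differ between strains through the linked stretch of DNA, through the locus itself, or through the same routes as genes elsewhere. The stretch around mouse Smim30 holds genes of many kinds: the imprinted Peg10 and Sgce cluster, the caveolin pair Cav1 and Cav2, the growth factor receptor gene Met, and the macrophage transcription factor gene Tfec.

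The libraries held 6855245 to 13456857 read pairs assigned to genes, and levels are given as CPM, the count per 1000000 of a library's counts. The detection floor of 3 counts in a library came to 0.223 to 0.438 CPM, for counting error alone. All 7 macrophage markers checked (Adgre1, Csf1r, Cd68, Lyz2, Itgam, Mertk and Fcgr1) were expressed in each group. In IC-21 cells Prg4, Timd4 and Gata6, of 10 large peritoneal macrophage markers, were at 0, and 4 others passed the filter on low counts. The summed level of that list was 18.7 to 22.9 CPM with siSmim30 and 17.2 to 20.4 CPM with siCtrl. Smim30 was lower with its siRNA (log2 fold change -0.97, edgeR quasi-likelihood adjusted p = 6.17e-08) and higher with its virus (0.28, adjusted p = 0.0052). In Mut against WT the whole-gene count gave 0.01 (adjusted p = 0.966), which does not speak to a change of sequence. Ribosomal RNA genes took 0.464 to 1.15% of counts in Mut and 1.9 to 2.78% in WT.

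Of the 116 genes, 70 were protein-coding and 46 were not. The 46 included 22 of the class TEC (transcribed stretches that GENCODE lists pending experimental proof) and 10 processed pseudogenes. Together the 116 genes took 0.439 to 0.465% of all counts in the Mut libraries and 0.41 to 0.428% in the WT libraries, and the groups did not overlap. After the filter on low counts, 88 genes could be tested in Mut against WT. The other 28 reached at most 1.51 CPM in any Mut or WT library, and 22 of them were tested in none of the 4 comparisons of groups. The imprinted genes Peg10 and Sgce were among these, with 4, 1 and 1 counts of Peg10 in Mut and 0, 3 and 3 in WT. Mir29a, the hairpin gene of the microRNA miR-29a, had 1, 5 and 2 counts in Mut and 4, 4 and 5 in WT. A difference in either gene was not detectable at this depth.

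In Mut against WT, 6 of the 88 tested genes were called at an adjusted p under 0.05 (edgeR quasi-likelihood test, Benjamini-Hochberg over all genes), and all 6 were higher in Mut. The share called, 6.82%, was close to the 6.3% called among all 12500 tested genes and the 6.79% among the 530 tested genes of the rest of chromosome 6. Among all genes 3.68% were called higher. The genes called were St7, Gpr85, Tes, Mdfic, Zfp800 and Tfec, all protein-coding. The median log2 fold change over the 88 genes was 0.06, against -0.01 over all tested genes, and 53 of the 88 were positive. The chromosomes apart from Y ranged from 4.11% called on chromosome 13 to 8.29% on chromosome 16.

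The called genes lay mostly near Smim30. Within 5 Mb of it, 5 of 19 tested genes were called, the median log2 fold change was 0.18, and 16 of the 19 were positive. Over all tested genes 6.3% were called and 48.4% were positive. All 5 were among the 14 protein-coding genes tested within 5 Mb, beside 7.18% called of all protein-coding genes. From 5 to 10 Mb, 0 of 20 genes were called by edgeR, with 1 at an unadjusted p under 0.05. The median there was 0.10, and 14 of the 20 were positive. Beyond 10 Mb, 1 of 49 genes was called, the median was 0.00 and 23 of the 49 were positive. The distance bins are a description, chosen with earlier results of these data known, and neighbouring genes are not independent. On the upper side of Smim30, 4 of the 14 tested genes within 5 Mb were called, and on the lower side 1 of 5.

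**Figure D1:**
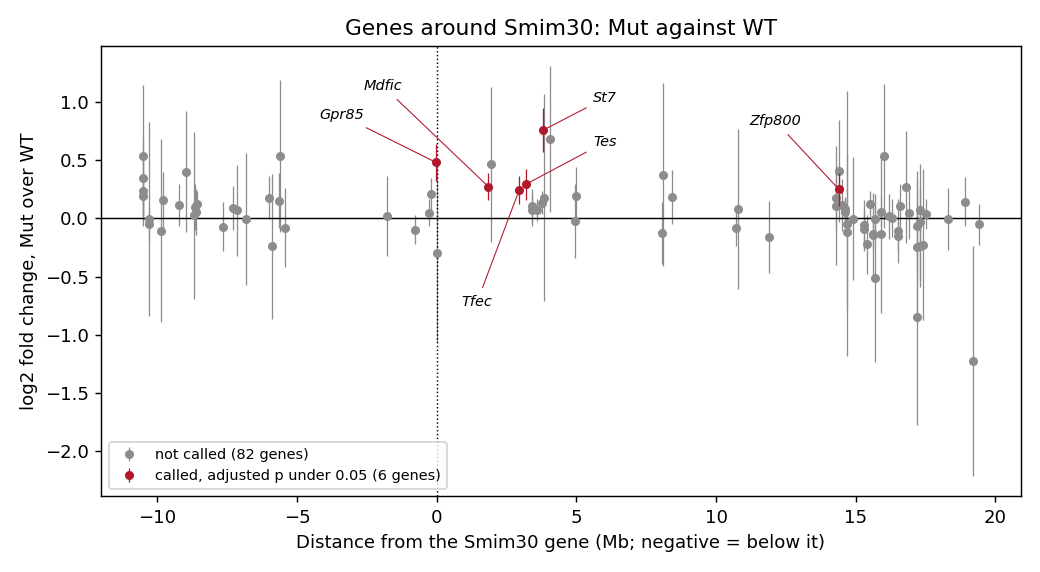
Log2 fold change of Mut over WT (y axis, with 95% intervals) for the 88 tested genes against distance from Smim30 in Mb (x axis, negative below the gene). Red points are the 6 called genes: 5 lie within 5 Mb of Smim30, and Zfp800 lies 14.4 Mb above it.

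St7, named suppressor of tumorigenicity 7 and encoding a membrane protein, had the largest difference of the 6. St7 had 41.5, 38.1 and 34.5 CPM in Mut libraries, against 22.0, 21.8 and 22.8 CPM in WT libraries. Every Mut library lay above every WT library. St7 starts 3.82 Mb above Smim30 (chr6:17692933-17943025, plus strand), and it was 1.69-fold higher in Mut, a log2 fold change of 0.76 (SE 0.092, adjusted p = 1.14e-06). Its call held in all 15 alternative fits. Apart from the fits with other filters on low counts, the log2 fold changes ran from 0.69 to 0.83. Gm43844, a TEC stretch that lies inside St7 on the same strand, had 21, 28 and 32 counts in Mut libraries and 21, 13 and 16 counts in WT libraries. Its log2 fold change was 0.68 (SE 0.31, adjusted p = 0.226) and was not called. Gm43533, another TEC stretch inside St7 on that strand, gave 0.18 (SE 0.44, adjusted p = 0.892).

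Gpr85 encodes an orphan G protein-coupled receptor best known from the brain, and it is the nearest protein-coding neighbour of Smim30 in the set. It lies 27.8 kb below Smim30 on the same strand (chr6:13834458-13839942, minus strand). Gpr85 had 49.0, 50.1 and 50.9 CPM in Mut libraries, against 38.6, 31.8 and 36.1 CPM in WT libraries. The groups did not overlap, and the Mut libraries differed little among themselves. Gpr85 was 1.4-fold higher in Mut, with a log2 fold change of 0.48 (SE 0.078, adjusted p = 0.000103), and its call held in all 15 alternative fits, as did those of Tes and Mdfic.

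Mdfic, Tfec and Zfp800 are the 3 called among the 6 tested genes of transcription and chromatin in this stretch, beside 6.3% of all tested genes, in a list made with earlier results of these data known. Mdfic, a MyoD-family inhibitor domain protein that holds transcription factors back, had 245.6, 255.0 and 215.3 CPM in Mut libraries, against 200.6, 192.8 and 193.8 CPM in WT libraries. Tfec, a basic helix-loop-helix factor of the Mitf family found mainly in macrophages, had 142.3, 146.1 and 125.8 CPM in Mut, against 114.9, 110.9 and 119.4 CPM in WT. Both genes had every Mut library above every WT library, with Mut replicate 3 the lowest of the Mut libraries. Mdfic was 1.21-fold higher in Mut, with a log2 fold change of 0.27 (SE 0.055, adjusted p = 0.0016). Tfec was 1.19-fold higher (0.25, SE 0.059, adjusted p = 0.00736), and its call was lost without Mut replicate 2 (adjusted p = 0.0889) or without WT replicate 2 (adjusted p = 0.0583). Zfp800, a zinc finger protein gene, had 73.9, 77.7 and 65.2 CPM in Mut, against 62.0, 60.0 and 58.5 CPM in WT. Its groups did not overlap, and it was 1.19-fold higher (0.25, SE 0.07, adjusted p = 0.0251). The Zfp800 call was lost in DESeq2 (adjusted p = 0.068), in limma-voom (0.0587) and without Mut replicate 1, Mut replicate 2, WT replicate 2 or WT replicate 3, where the adjusted p ran from 0.0755 to 0.2. The other 3 genes of this list, Phf14, Ing3 and Nrf1, gave 0.02, -0.13 and 0.02 and were not called.

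Tes encodes testin, a LIM domain protein of focal adhesions and actin fibres. Tes had 71.5, 66.5 and 67.9 CPM in Mut libraries, against 54.3, 56.3 and 56.1 CPM in WT libraries. The groups did not overlap, and Tes was 1.23-fold higher in Mut, with a log2 fold change of 0.29 (SE 0.066, adjusted p = 0.00434). It was the only one called of the 10 tested genes for caveolae, adhesion and cytoskeleton, although 4 of the others lie within about the same distance of Smim30. The caveolin genes Cav2 and Cav1 gave 0.07 (adjusted p = 0.639) and 0.11 (adjusted p = 0.474). Met, the receptor of hepatocyte growth factor, gave 0.07 (95% interval -0.02 to 0.17, adjusted p = 0.462). Capza2, an actin capping subunit directly below St7, gave 0.14 (0.04 to 0.23, adjusted p = 0.0894), with 362.6 to 384.4 CPM in Mut and 329.6 to 344.4 CPM in WT.

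On exonic length, the 6 called genes kept one order in both groups. Mean CPM per kb of exon was 32.1 for Mdfic, 24.7 for Tfec, 14.95 for Zfp800, 12.2 for Gpr85, 10.04 for Tes and 4.21 for St7 in Mut. In WT the same scale gave 26.4, 20.6, 12.5, 8.69, 8.13 and 2.45 in that order of genes. Among all 116 genes, Met and Atp6v1f, a subunit of the vacuolar proton pump, stood highest per length in Mut, at 102.7 and 101.7 CPM per kb.

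The neighbours closest to Smim30 did not move together. Bmt2, which encodes a sensor of S-adenosylmethionine upstream of mTORC1, lies 0.19 Mb below Smim30 and had 64.2, 65.1 and 63.4 CPM in Mut libraries, against 53.7, 51.5 and 59.9 CPM in WT libraries. Its groups did not overlap, but its log2 fold change of 0.21 (SE 0.07, adjusted p = 0.0757) was not called. The call was made without WT replicate 3 (adjusted p = 0.0262) and in the fit of all 18 libraries (adjusted p = 0.0206). Tmem168 gave 0.05 (adjusted p = 0.718), the lysosomal membrane protein gene Tmem106b -0.09 (adjusted p = 0.471) and Phf14 0.02 (adjusted p = 0.966). The noncoding gene 1110019D14Rik starts 8 bases beyond the end of Smim30 on the opposite strand. It had 7, 16 and 14 counts in Mut and 15, 13 and 17 counts in WT (-0.29, SE 0.38, adjusted p = 0.765).

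Other lists of genes in this stretch held no call in Mut against WT. None of 7 tested genes of metabolism, 11 of RNA, DNA and protein turnover, 10 of membrane traffic and nuclear transport, and 5 imprinted genes was called by edgeR. DESeq2 and limma-voom called none of them either, and at an unadjusted p under 0.05 each of these lists had 1 gene. All 5 tested imprinted genes (Casd1, Ppp1r9a, Pon3, Pon2 and Copg2) had positive values, with a median of 0.06. None of 29 tested genes without a protein product was called, against 1.33% of all such genes, and 3 had an unadjusted p under 0.05. Of the 29, Gm20559 was called in 2 of the 15 alternative fits: with no filter and without Mut replicate 3 (edgeR adjusted p = 0.00068). Samd9l, an interferon-induced gene at the lower end of the stretch, had 291.5, 248.9 and 210.8 CPM in Mut libraries and 187.4, 193.9 and 202.2 CPM in WT libraries. The Mut libraries spread widely, and the log2 fold change of 0.35 (SE 0.13) gave an adjusted p of 0.266. Samd9l was called in 5 of the 15 alternative fits, among them limma-voom (adjusted p = 0.025) and the fit without Mut replicate 3 (adjusted p = 2.48e-06). Over the 88 genes, 19 had groups that did not overlap, 18 of them higher in Mut, beside 22.9% of all tested genes with groups that did not overlap in either direction.

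Cell type markers also moved between Mut and WT. Of the 7 macrophage markers, Fcgr1 was called higher and Lyz2 lower, and the list's summed level was 9054 to 9509 CPM in Mut and 10353 to 11023 CPM in WT. Of 4 tested dendritic cell markers, Batf3 and Ccl22 were called higher, with the list's summed level at 24.5 to 30.8 CPM in Mut and 12.5 to 13.8 CPM in WT. Of 7 tested large peritoneal macrophage markers, Prg4 and Thbs1 were called lower (summed level 187 to 206 CPM in Mut and 294 to 305 CPM in WT). The B cell marker Cd22 was the only one called, lower, of 4 tested in its list (summed level of the list 60.3 to 63.9 CPM in Mut and 83.2 to 92.2 CPM in WT). None of 6 fibroblast and mesothelial markers was called, with 1 at an unadjusted p under 0.05. In bulk RNA, fewer cells of a type and less RNA per cell cannot be told apart, and the part of these markers or of ribosomal RNA in the 6 calls was not tested. Without the ribosomal RNA genes, 6 genes of the stretch were called again.

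**Figure D2:**
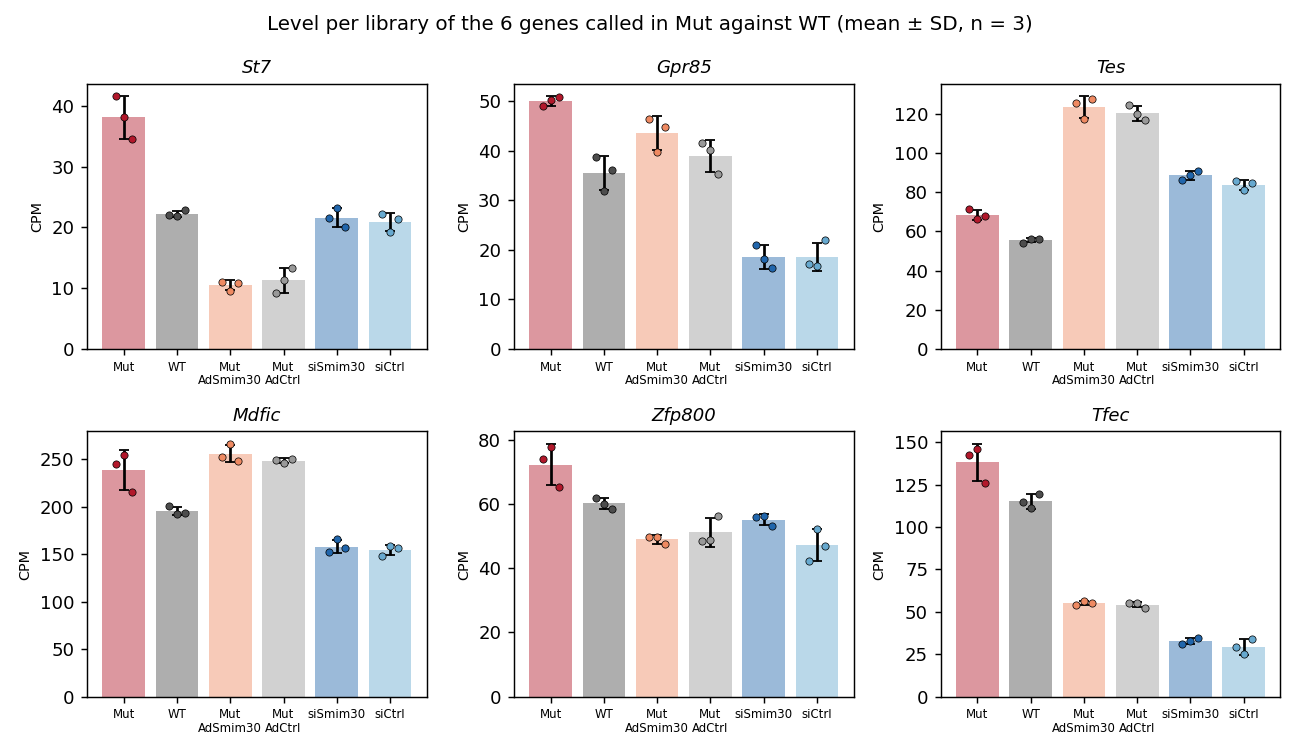
Level in CPM (y axis, from 0) of the 6 genes called in Mut against WT, in each library of the 6 groups (x axis). Bars are means, whiskers SD (n = 3) and points libraries: all Mut points lie above all WT points in each panel, while the Mut AdSmim30 and Mut AdCtrl bars are close to each other.

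Promoter sequences are printed for 4 of the 6 called genes: St7 and Gpr85, which had the largest differences, and Mdfic and Tfec, which held a match to a searched pattern. They run from 250 bases before to 50 bases after a RefSeq start on GRCm38.p6, each 5' to 3' on the gene's own strand. St7 and Zfp800 have more than 1 RefSeq start, and the St7 promoter shown is that of the start furthest upstream. The windows are chr6:17693744-17694043 (plus) for St7, chr6:13839893-13840192 (minus) for Gpr85, chr6:15720411-15720710 (plus) for Mdfic and chr6:16898392-16898691 (minus) for Tfec. Capitals mark the matched letters.
St7: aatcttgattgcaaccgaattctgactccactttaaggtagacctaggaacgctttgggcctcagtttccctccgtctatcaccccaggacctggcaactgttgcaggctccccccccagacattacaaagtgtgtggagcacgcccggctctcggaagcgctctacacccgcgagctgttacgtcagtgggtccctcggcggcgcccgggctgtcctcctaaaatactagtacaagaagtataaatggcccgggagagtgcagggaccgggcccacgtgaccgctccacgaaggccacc
Gpr85: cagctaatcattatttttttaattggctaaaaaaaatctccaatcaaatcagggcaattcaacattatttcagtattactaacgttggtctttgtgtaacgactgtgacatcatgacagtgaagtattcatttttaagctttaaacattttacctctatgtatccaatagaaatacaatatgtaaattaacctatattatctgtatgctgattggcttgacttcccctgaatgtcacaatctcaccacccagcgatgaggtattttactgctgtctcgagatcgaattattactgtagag
Mdfic: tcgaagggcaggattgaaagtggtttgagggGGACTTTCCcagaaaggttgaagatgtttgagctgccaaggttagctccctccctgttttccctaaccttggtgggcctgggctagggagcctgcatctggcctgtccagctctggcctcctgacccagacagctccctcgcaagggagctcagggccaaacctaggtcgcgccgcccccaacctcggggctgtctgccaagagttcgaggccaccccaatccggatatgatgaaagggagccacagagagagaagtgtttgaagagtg
Tfec: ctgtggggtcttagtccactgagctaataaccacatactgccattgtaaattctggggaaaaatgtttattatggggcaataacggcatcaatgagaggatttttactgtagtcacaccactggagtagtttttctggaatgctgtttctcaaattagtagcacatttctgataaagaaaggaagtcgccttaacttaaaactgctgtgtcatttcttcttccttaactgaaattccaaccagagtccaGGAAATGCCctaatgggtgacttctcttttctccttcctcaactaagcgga

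All 6 called genes had a promoter in the table. The letters searched, on both strands, were GGNNTTTCC (of the NF-kB kind), TGANTCA (of the AP-1 kind), GAAANNGAA (of the interferon response kind) and TTGCNNAA (of the C/EBP kind). GGNNTTTCC was found in 5.83% of all 32817 promoters of this length, TGANTCA in 7.81%, GAAANNGAA in 8.55% and TTGCNNAA in 10.8%, and at least 1 of the 4 in 28.7%. Mdfic held GGACTTTCC from 219 to 211 bases before its start. Tfec held GGAAATGCC, the same pattern read on the other strand, across its start. The 9 windows of the 6 genes held no other match, which says only that these letters are not in these windows. The windows differed widely in base makeup, from 33.3% G and C in Gpr85 to 77.3% in the second window of Zfp800.

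The Smim30 virus was given to Mut cells, and Mut AdSmim30 was set against Mut AdCtrl to see what the virus-borne Smim30 did. The Smim30 count rose by a log2 fold change of 0.28 (edgeR quasi-likelihood adjusted p = 0.0052). By the same test, Smim30 was lower in Mut AdCtrl than in Mut (-0.19, adjusted p = 0.0418). Whether the rise with the Smim30 virus restored Smim30 function was not tested. By edgeR, 0 of 81 tested genes were called, beside 1.43% of all 12701 genes. DESeq2 also called 0, and 9 genes had an unadjusted p under 0.05. For St7 the log2 fold change was -0.09 (95% interval -0.35 to 0.17), with 11.1, 9.54 and 10.9 CPM in Mut AdSmim30 and 9.12, 11.4 and 13.3 CPM in Mut AdCtrl. Gpr85 had 46.4, 39.7 and 44.7 CPM in Mut AdSmim30 and 41.5, 40.0 and 35.2 CPM in Mut AdCtrl, and the groups overlapped (0.16, interval 0.02 to 0.30, adjusted p = 0.377). Tes, Mdfic and Tfec gave 0.04, 0.05 and 0.03, and Zfp800 gave -0.06. Cav1 had 12.6, 10.8 and 9.66 CPM in Mut AdSmim30, below 13.4, 15.9 and 13.6 CPM in Mut AdCtrl (-0.38, SE 0.12, adjusted p = 0.107). The other caveolin gene, Cav2, averaged 75.43 CPM in Mut AdSmim30 and 76.25 CPM in Mut AdCtrl. Caveolin is abundant in fibroblasts, and all 6 tested fibroblast and mesothelial markers were lower in the same libraries. Their list had a summed level of 35.9 to 42.4 CPM in Mut AdSmim30 and 71.2 to 83.1 CPM in Mut AdCtrl. Of the 7 macrophage markers, Itgam and Adgre1 were called higher in Mut AdSmim30. The summed level of that list was lower, at 9488 to 9597 CPM in Mut AdSmim30 and 9645 to 9763 CPM in Mut AdCtrl. The part of these markers in the Cav1 value was not tested. Sdhaf3, an assembly factor of succinate dehydrogenase, had 2.02, 1.34 and 1.56 CPM in Mut AdSmim30 and 2.85, 4.35 and 2.16 CPM in Mut AdCtrl (-0.94, SE 0.29, adjusted p = 0.0876).

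The mutation effect and the Smim30 virus effect were added, and the sum was tested. It would be 0 after a full reversal, if the mutation effect is the same in infected cells. WT cells received no virus, so that condition was not tested. Levels also differed between Mut and Mut AdCtrl, with means of 38.1 and 11.3 CPM for St7 and 68.6 and 120.5 CPM for Tes. A sum can be called through the mutation effect alone where the virus effect is near 0. Of 93 tested genes, 7 had a sum called above 0 and 0 below it by edgeR, beside 5.23% of all 13422 genes in both directions. They were St7 (0.67, 95% interval 0.35 to 0.99), Gpr85 (0.65, 0.43 to 0.86), Tes (0.33), Mdfic (0.32), Tfec (0.28), Calu (0.23) and Capza2 (0.19). For Zfp800 the sum was 0.20 (0.00 to 0.39, adjusted p = 0.277). The sum for Tfec was not called in DESeq2 (adjusted p = 0.0727) or without any 1 of 8 libraries, with adjusted p up to 0.119. The sums of St7, Gpr85, Tes and Mdfic were called in all 16 alternative fits. The sum of Capza2 was called in 8 of them and that of Calu in 4, and Calu was not called in DESeq2 (adjusted p = 0.0926). The number of sums called ran from 4 to 9 when 1 library was left out.

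In IC-21 cells siSmim30 was set against siCtrl. Of 86 tested genes 2 were called, 1 in each direction, beside 3.48% of all 13576 genes. C1galt1, which encodes the galactosyltransferase of core 1 O-glycans, had 66.7, 64.1 and 61.6 CPM with siSmim30, against 54.4, 47.4 and 51.8 CPM with siCtrl. The groups did not overlap, and C1galt1 was 1.28-fold higher (log2 fold change 0.35, SE 0.067, adjusted p = 0.000232). Tmem106b had 41.7, 38.5 and 37.7 CPM with siSmim30, below 51.5, 45.7 and 46.0 CPM with siCtrl (-0.26, SE 0.076, adjusted p = 0.0405). Its call was lost in DESeq2 (adjusted p = 0.124), limma-voom, the fit of all 18 libraries and without any 1 of 5 libraries, with adjusted p up to 0.195. Zfp800 had 56.0, 56.2 and 53.2 CPM with siSmim30, above 42.3, 52.3 and 46.9 CPM with siCtrl (0.23, SE 0.072, adjusted p = 0.0648). That difference was not called, except without siCtrl replicate 2 (adjusted p = 0.021) and with a replicate block (0.0313).

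The mutation and siRNA effects share no library, and their difference was tested for 92 genes. St7 was the only gene called, beside 2.51% of all 14804 genes. Its mutation effect exceeded its siRNA effect by 0.68 (95% interval 0.41 to 0.96, adjusted p = 0.0016). With siSmim30, St7 had 21.5, 23.2 and 20.05 CPM, and with siCtrl 22.2, 19.3 and 21.3 CPM, so these groups overlapped (0.08, interval -0.13 to 0.29). For Gpr85 the difference was 0.47 (0.18 to 0.75, adjusted p = 0.0638), and it was called without siSmim30 replicate 1 (adjusted p = 0.0364) and in the fit of all 18 libraries (0.045). For Mdfic it was 0.23 (0.08 to 0.37, adjusted p = 0.0816), called without Mut replicate 3 (adjusted p = 0.00613) and in the fit of all 18 libraries (0.0441). For Tfec it was 0.06 (-0.16 to 0.28) and for Zfp800 0.02 (-0.18 to 0.23). Leaving out Mut replicate 3 gave 5 called genes in place of 1. C1galt1, called with the siRNA, gave 0.18 in Mut against WT (adjusted p = 0.307), and its difference between the effects was -0.17 (-0.40 to 0.06).

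**Figure D3:**
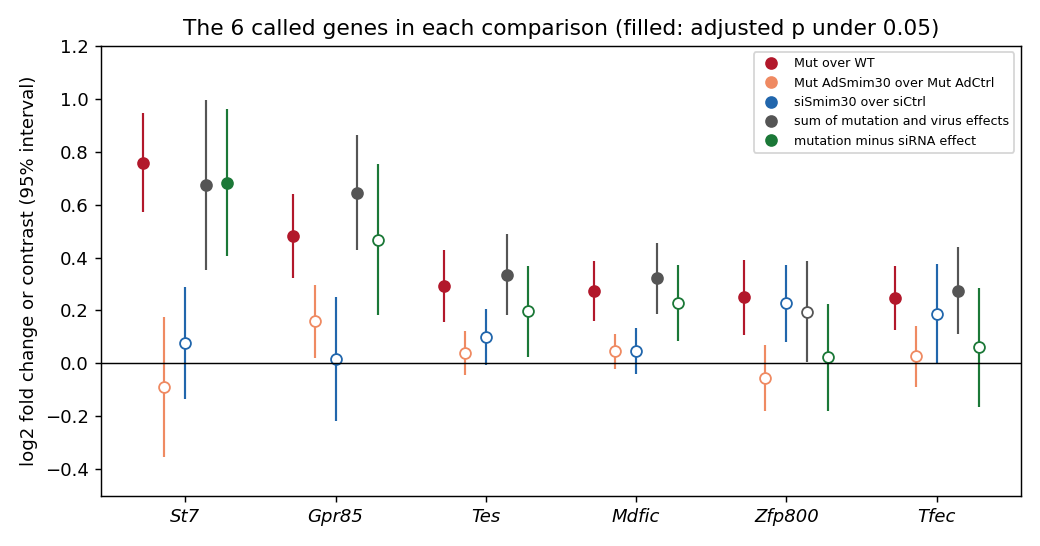
Log2 fold change or contrast (y axis, with 95% intervals) of the 6 genes called in Mut against WT (x axis) in 3 comparisons and 2 contrasts between them. Filled points have an adjusted p under 0.05: of the green points for the mutation minus siRNA effect St7's is filled, and Zfp800 is open for the sum of mutation and virus effects.

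Mut AdCtrl against Mut had by far the most calls. Control virus, added time in culture and separate parts of the study coincide in this comparison and cannot be told apart. Of 87 tested genes 61 were called (70.1%), 23 higher and 38 lower in Mut AdCtrl, beside 53.6% of all 12798 genes, with 27.1% called higher and 26.5% called lower. Among protein-coding genes, 21 were higher and 18 lower of 60 tested, beside 58.2% called of all 10818 protein-coding genes, 30.3% higher and 27.9% lower. Among the other classes 2 were higher and 20 lower of 27 tested, with a median of -1.52, beside 18.7% called lower of all 1980 genes of those classes.

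Met had 97.9, 94.6 and 93.3 CPM in Mut AdCtrl libraries, against 789.7, 809.2 and 766.9 CPM in Mut libraries. It was 8.47-fold lower in Mut AdCtrl (log2 fold change -3.08, SE 0.045, adjusted p = 1.01e-30). Cav1 had 13.4, 15.9 and 13.6 CPM in Mut AdCtrl libraries, against 51.0, 52.8 and 52.3 CPM in Mut libraries (-1.90, SE 0.088, adjusted p = 3.93e-18), while its neighbour Cav2 was not called. The fibroblast and mesothelial markers were lower in Mut AdCtrl as well, 6 of 6 tested, at 71.2 to 83.1 CPM in Mut AdCtrl and 151 to 183 CPM in Mut. Other markers moved in this comparison too. Of 7 macrophage markers, Fcgr1, Itgam and Cd68 were called higher and Adgre1 and Csf1r lower (summed level 9645 to 9763 CPM in Mut AdCtrl and 9054 to 9509 CPM in Mut). Of 7 tested large peritoneal macrophage markers, Cd5l and Icam2 were higher and Prg4, Thbs1 and Timd4 lower (125 to 130 CPM summed in Mut AdCtrl and 187 to 206 CPM in Mut). Of 3 tested dendritic cell markers, Batf3 and Ccl22 were lower (6.78 to 6.86 CPM summed in Mut AdCtrl and 24.5 to 30.8 CPM in Mut). Of 3 tested B cell markers, Cd22 was higher and Cd79a and Ighm lower, and the neutrophil marker S100a8 and the mast cell marker Kit were lower. The part of these markers in the 61 calls was not tested. The Hedgehog transducer Smo (-2.21) and the STRIPAK complex subunit Strip2 (-3.05) were also lower, both from low counts, with 2 to 7 counts of Smo in Mut AdCtrl libraries and 14 to 25 in Mut libraries.

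Higher in Mut AdCtrl were Cped1 (log2 fold change 2.70), the G protein subunit Gng11 (2.48), the lipid droplet protein Hilpda (1.99) and the semaphorin receptor Plxna4 (1.29). Hilpda, which slows triglyceride breakdown, had 72.4, 58.3 and 61.0 CPM in Mut AdCtrl libraries, against 13.5, 17.96 and 15.8 CPM in Mut libraries. It was 3.96-fold higher, and 4 more of the 7 tested genes of metabolism were higher too (Slc25a13, Impdh1, Ahcyl2 and Chchd3), with none called lower by edgeR and 5 of 7 at an unadjusted p under 0.05. The median of the list was 0.50, beside 0.00 over all genes, of which 27.1% were called higher. Of the 5 tested imprinted genes Pon3, Pon2 and Copg2 were higher (median of the 5 genes 0.33). In membrane traffic and nuclear transport 4 were higher and 4 lower of 11, not far from the shares over all genes.

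This comparison shares its Mut libraries with Mut against WT, so the values of the 6 genes called there are given side by side and not as separate support. St7 was lower in Mut AdCtrl (-1.79), as were Tfec (-1.38), Zfp800 (-0.53) and Gpr85 (-0.39). Tfec had 54.9, 55.3 and 52.5 CPM in Mut AdCtrl, far under its 125.8 to 146.1 CPM in Mut. Tes was higher (0.78), and Mdfic was not called (0.03, 95% interval -0.08 to 0.13).

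Of the 22 TEC stretches, 17 were tested in Mut AdCtrl against Mut, with 13 called lower and 1 higher (median -1.76, beside 21.8% called lower of all 468 tested TEC genes). Gm43800 had 2, 3 and 4 counts in Mut AdCtrl libraries, against 21, 32 and 22 counts in Mut libraries (-3.22, SE 0.46, adjusted p = 5.3e-07). Gm43196 had 7, 3 and 3 counts in Mut AdCtrl, against 26, 49 and 29 counts in Mut (-3.19, SE 0.42). The stretches Gm37321, Gm37940 and Gm37978 lie inside Snd1, which encodes a nuclease of RNA turnover, on its own strand. They gave -1.76, -2.02 and -1.79, beside -0.61 for Snd1 itself. Gm43844 gave -2.36 beside -1.79 for St7, in which it lies. Of the TEC stretches inside a protein-coding gene on its strand 4 of 7 tested were called lower, and of those outside any protein-coding gene 9 of 10. Some of the latter, such as Gm43800, lie inside a noncoding gene of the set on its strand, so they are not all free-standing.

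**Figure D4:**
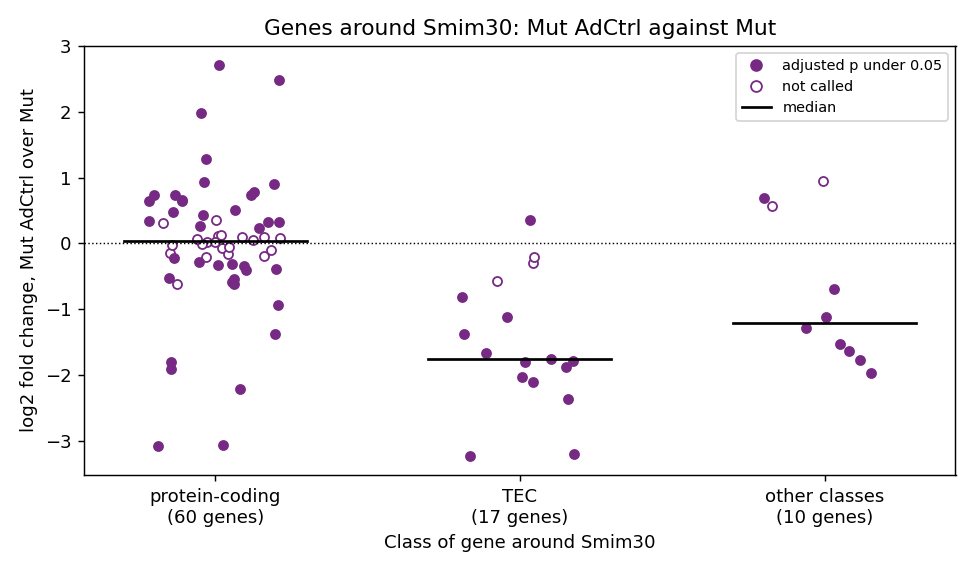
Log2 fold change of Mut AdCtrl over Mut (y axis) for the 87 tested genes around Smim30, by class (x axis), with filled points called at an adjusted p under 0.05 and black lines at the medians. Protein-coding genes spread on both sides of 0, while 13 of the 17 tested TEC stretches were called lower.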

How the data were processed

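Total RNA of 18 libraries was sequenced strand-specifically, per the labels' protocols, and each library's group came from its labels. The submitters' processing notes name fastp, FastQC and HISAT2 for the reads. The authors deposited counts: read pairs on the exons of each gene, unnormalized, from featureCounts 2.0.3 set to reversely stranded pairs with GENCODE M25 (GRCm38), per the file headers. Gene symbols matched 55141 of 55401 identifiers, and classes came from GENCODE M21. CPM in the text is a count scaled to its library's total.

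Each comparison was fitted over all genes with edgeR 4.0.16 in R 4.3.3 (filterByExpr, TMM scaling, robust quasi-likelihood F test) and called at a Benjamini-Hochberg adjusted p under 0.05. Contrasts between comparisons used 12 libraries. An exact permutation test of 3 against 3 libraries cannot go below 0.1, so none was used. The fits were tested on simulated data.

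Alternatives were other scaling (RLE, or library totals alone), other filters on low counts (1 CPM in 3 libraries, or none), DESeq2 1.42.0, limma-voom (limma 3.58.1), 1 fit of all 18 libraries, a replicate block, no ribosomal RNA genes, narrower or wider gene sets, and each library left out.

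Genes named are those called in Mut against WT, up to 8 called in each other comparison by size, the 5 tested genes nearest Smim30 on each side, and examples of the role lists. Samd9l, Gm20559, Gm43533, Mir29a, Atp6v1f and the stretches inside Snd1 were named after their values were seen. The members and lists were chosen with earlier results of these data known. Promoters came from RefSeq (GRCm38.p6), matched by symbol for 73 of the 116 genes.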

Additional observations from a re-analysis of the deposited data

Results flagged for a closer look

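St7 was flagged because its effect differed between the mutant macrophages and the knockdown cell line. The mutation effect minus the siRNA effect was 0.68 on the log2 scale (edgeR quasi-likelihood adjusted p = 0.0016), with every Mut library above every WT library, at 34.5 to 41.5 CPM in Mut and 21.8 to 22.8 CPM in WT. The siSmim30 and siCtrl libraries overlapped, at 20.05 to 23.2 CPM with siSmim30 and 19.3 to 22.2 CPM with siCtrl. Cells, agent and series part all differ between the 2 comparisons and cannot be told apart here.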

How the results depend on the processing

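In Mut against WT, 4 to 9 genes were called in each alternative, 4 without Mut replicate 2 or WT replicate 2, 5 in DESeq2 and 9 in the fit of all 18 libraries, and the median log2 fold change stayed between 0.04 and 0.09. In Mut AdSmim30 against Mut AdCtrl the count of 0 became 2 when no gene of the stretch was left out by name. The 1 called higher was Smim30 itself, and 1 was called lower. With 1 library left out the count for this comparison was 0 to 1. In siSmim30 against siCtrl it was 1 in DESeq2, 1 in limma-voom, 1 in the fit of all 18 libraries and 1 to 2 when 1 library was left out. In Mut AdCtrl against Mut, 26 were called within 10 Mb, 39 protein-coding and 22 others, the split by class being chosen after seeing the data. For the mutation effect minus the siRNA effect the count was 3 in the fit of all 18 libraries and 1 to 5 when 1 library was left out. For the sum of effects it was 4 to 9 when 1 library was left out. Of the other values of single genes, 1585 kept their call or lack of one, 25 lost a call, 10 gained one and 0 changed direction among called values. The cause of these shifts was not tested. With a replicate block 6 genes were called in Mut against WT, 0 with the virus, 3 with the siRNA, 61 in Mut AdCtrl against Mut, 1 for the difference and 7 for the sum. Libraries with the same number did not deviate together in every pair, so the numbers were not taken to pair them. Genes with no more than 3 counts in each library lie at the detection floor, and differences in them were not detectable at this depth.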
